A study of Mus musculus with 6 samples.

Results

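The genes examined here were those of cytochrome P450 families 2, 3 and 4 in mouse liver, measured in pups with and without an active human SRY transgene. Members were taken by gene symbol, namely every Cyp2 and Cyp4 symbol made of the family number, 1 subfamily letter and a member number, and every Cyp3a symbol of the same form, with Cyp4a10 and Cyp4a14 left out by the rule and spellings with a trailing letter such as Cyp4a12a not taken by it. The rule took 70 probes of 52 gene symbols out of 25697 probes of 18138 symbols on the array. Total RNA from the liver was hybridised to single-colour Illumina bead arrays, with 3 arrays from hSRY-ON and 3 arrays from hSRY-OFF mice. All 6 arrays came from male mice of the FVB strain (FVB/N in the study's methods) at P6 (postnatal day 6). Both groups carried the Signalox-hSRY transgene, a single copy placed at the H11 locus, in which a CAG promoter, active in nearly all cell types, drives a floxed DsRed2 gene placed ahead of FLAG-tagged human SRY joined to EGFP. In hSRY-ON mice the floxed DsRed2 gene had been removed by Cre recombinase from the oocytes of Ddx4-Cre mothers, so that SRY and EGFP were expressed from the earliest embryo on, and the pups chosen did not themselves carry Ddx4-Cre. In hSRY-OFF mice the transgene was not recombined and DsRed2 was expressed. All mice derived from 1 transgene insertion, and since hSRY-ON pups grew poorly and took little milk, feeding state and SRY expression cannot be told apart in this design. Nothing in the labels beyond the replicate number tells the animals apart, and the study describes the arrays as biological replicates.

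Cytochrome P450 enzymes are heme proteins of the endoplasmic reticulum that insert an oxygen atom into their substrates, using electrons passed on by P450 oxidoreductase and in part by cytochrome b5. Enzymes of families 2 and 3 are known in the liver for the metabolism of drugs, toxicants, steroids and bile acids, and those of family 4 for the hydroxylation of fatty acids and eicosanoids at or near the end of the chain. Many are tuned by nuclear receptors such as the constitutive androstane receptor and the pregnane X receptor, change in the weeks after birth, and in adult mice some differ between the sexes.

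Members of a subfamily mostly shared a chromosome. In the RefSeq gene table (assembly GRCm38.p6), all 11 Cyp2c symbols were on chromosome 19, all 8 Cyp2d symbols on chromosome 15 and all 5 Cyp3a symbols on chromosome 5, while the Cyp2a, Cyp2b, Cyp2e, Cyp2f, Cyp2g, Cyp2r and Cyp2s symbols were on chromosome 7. The deposited table names no genome build, so the genes themselves are given without coordinates, and the coordinates below are those of the RefSeq promoter windows. Promoter windows from 250 bases before to 50 bases after the annotated start were found for 44 of the 52 symbols, with 50 windows in all. The closest promoters of 1 subfamily were those of Cyp2b9 and Cyp2b13, which had 298 of 300 bases in common (99.3%). They differed by T48C and C104T, with the Cyp2b9 base first and positions counted from the 5′ end of the window. The Cyp2b pair is shown because its 2 members differed in response, the Cyp2c37 and Cyp2c50 pair (88% identical) because its members varied together, and the Cyp3a11 and Cyp3a13 pair (58.7% identical) because its members were called in opposite directions. The sequences are the 250 bases before the start, 5′ to 3′ on the strand of the gene, from RefSeq GRCm38.p6, which is built from C57BL/6J and not from FVB. Capitals mark any match, on either strand, to TATAAA, the core of the TATA box, to AGGTCA, the unit that many nuclear receptors bind singly or in pairs, or to AACAAT, which SRY and SOX proteins are known to bind.
Cyp2b9 (chr7:26173159-26173408, plus strand): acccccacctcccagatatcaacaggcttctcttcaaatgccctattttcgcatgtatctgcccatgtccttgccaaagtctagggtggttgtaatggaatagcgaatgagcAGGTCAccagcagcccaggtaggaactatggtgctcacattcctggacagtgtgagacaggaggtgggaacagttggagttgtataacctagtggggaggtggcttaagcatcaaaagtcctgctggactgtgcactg
Cyp2b13 (chr7:26061245-26061494, plus strand): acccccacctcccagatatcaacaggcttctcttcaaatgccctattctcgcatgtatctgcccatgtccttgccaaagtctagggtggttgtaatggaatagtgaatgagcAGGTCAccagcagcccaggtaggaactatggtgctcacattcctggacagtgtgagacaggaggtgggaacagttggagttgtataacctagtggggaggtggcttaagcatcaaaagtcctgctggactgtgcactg
Cyp2c37 (chr19:39992174-39992423, plus strand): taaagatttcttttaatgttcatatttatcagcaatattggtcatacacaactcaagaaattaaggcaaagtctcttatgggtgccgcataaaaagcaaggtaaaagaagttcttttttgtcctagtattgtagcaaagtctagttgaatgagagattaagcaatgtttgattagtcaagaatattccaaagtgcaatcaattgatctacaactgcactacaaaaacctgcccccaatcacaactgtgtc
Cyp2c50 (chr19:40089429-40089678, plus strand): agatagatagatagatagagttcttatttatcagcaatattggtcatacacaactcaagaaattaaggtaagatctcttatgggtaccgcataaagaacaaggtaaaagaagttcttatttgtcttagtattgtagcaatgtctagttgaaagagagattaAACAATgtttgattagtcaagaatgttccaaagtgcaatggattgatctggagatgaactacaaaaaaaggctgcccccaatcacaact
Cyp3a11 (chr5:145879855-145880104, minus strand): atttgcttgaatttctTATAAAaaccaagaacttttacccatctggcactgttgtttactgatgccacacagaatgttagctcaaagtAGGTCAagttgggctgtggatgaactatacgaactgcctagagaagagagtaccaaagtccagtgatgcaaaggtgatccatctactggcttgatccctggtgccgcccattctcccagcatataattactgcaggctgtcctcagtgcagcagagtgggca
Cyp3a13 (chr5:137921620-137921869, minus strand): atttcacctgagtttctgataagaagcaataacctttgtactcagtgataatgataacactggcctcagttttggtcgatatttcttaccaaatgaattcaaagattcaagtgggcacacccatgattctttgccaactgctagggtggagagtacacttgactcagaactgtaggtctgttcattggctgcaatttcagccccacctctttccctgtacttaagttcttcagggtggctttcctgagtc

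Both Cyp2b windows held AGGTCA at the same place, position 113. Over 300 bases on both strands, TATAAA was found in 19 of 50 member windows (38%) against 13.6% of 32851 windows of all genes, AGGTCA in 15 (30%) against 16.3%, and AACAAT in 4 (8%) against 10.7%. AACAAT was in 0 of the 14 windows of members called lower and in 0 of the 5 windows of members called higher. The 3 motifs share no letters where they match in the printed sequences, and a match or its absence describes these letters only.

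A probe was called detected on an array when its detection p-value, its rank among the negative control beads of that array, was under 0.01, and it was tested when at least 3 of the 6 arrays detected it. Of the 70 member probes, 42 passed, covering 32 symbols. Values are log2 of the background-corrected, quantile-normalised intensity, differences are hSRY-ON minus hSRY-OFF on that scale with the SE of the limma fit, and p-values are limma's, adjusted by the Benjamini-Hochberg method over all 10734 tested probes. The arrays detected 10318 to 10762 probes of all genes, and 38 to 42 of the member probes. The hSRY-OFF arrays detected 41 ± 1 member probes and the hSRY-ON arrays 39 ± 1 (SD, n = 3 each), a difference of -2 that this design could not test below the threshold (p = 0.2 in an exact, two-sided permutation of the group labels, which is the smallest p that these counts allow, since 1 hSRY-OFF and 1 hSRY-ON array both had 40). The 18 symbols without detection on any array were Cyp2b19, Cyp2c29, Cyp2c38, Cyp2c40, Cyp2c65, Cyp2c68, Cyp2d12, Cyp2d13, Cyp2d34, Cyp2j5, Cyp2j6, Cyp2j11, Cyp2j13, Cyp2r1, Cyp2u1, Cyp3a16, Cyp3a44 and Cyp4x1. Cyp2j9 and Cyp4f39 were each detected on 1 array and not tested. The undetected members included Cyp2r1, the vitamin D 25-hydroxylase, Cyp2j5, an arachidonic acid epoxygenase of kidney and liver, and Cyp3a16, known from fetal and newborn liver, and for these no group difference can be given.

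The livers of hSRY-ON pups had lower signals for more members of the families than they had higher ones. Of the 42 tested probes, 16 of 12 symbols were called lower (38.1%) and 6 of 5 symbols higher (14.3%), while of all tested probes on the array 17.3% were called lower and 15.8% higher. The share called lower was thus above that of the whole array and the share called higher close to it. The median difference over the 42 probes was -0.48, against 0.02 over all tested probes, and 30 of the 42 differences were negative. Called and at least 2-fold lower were 10 of the 42 probes, against 6.95% of all tested probes. All 6 probes called higher were at least 2-fold higher (14.3% of the 42, against 5.24%), so that this share was also above that of the array. In 20 of the 42 member probes all 3 hSRY-ON values lay below all 3 hSRY-OFF values and in 9 all lay above, where the whole array had 24.6% and 25.4%. The fall was mostly in family 2, where 13 of 29 tested probes were called lower and 2 higher, with a median difference of -0.74, and the smaller families 3 (1 lower and 2 higher of 4) and 4 (2 lower and 2 higher of 9) showed both directions. The members passed the filter also through the group in which they were bright, so these counts describe the tested probes and not all members. Of the called probes, both of Cyp2g1 and that of Cyp2c39 passed it through 1 group alone. Among the 35 member probes detected on all 6 arrays, 13 were called lower and 4 higher. Over the whole array, the same filter gave 1574 probes called lower and 1506 called higher, which were nearly equal in number.

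**Figure D1:**
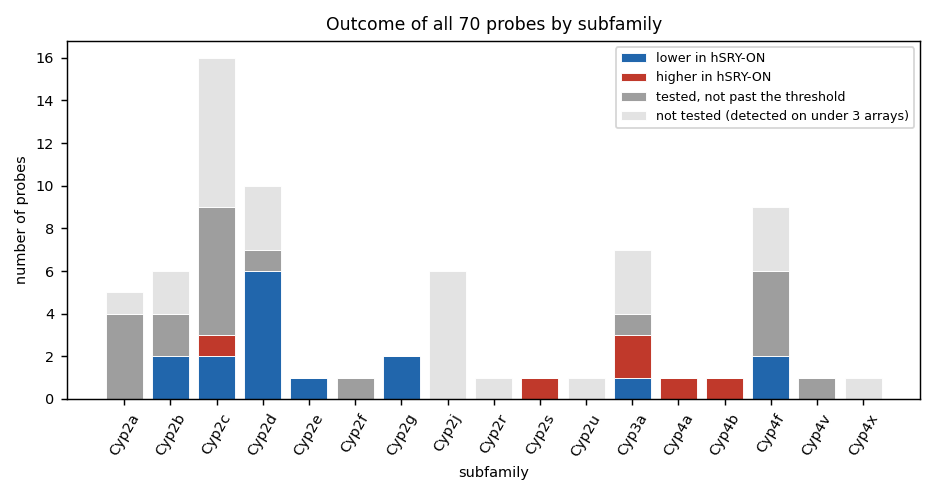
Number of member probes per subfamily (bars, 70 probes in all), split by outcome of the comparison of hSRY-ON with hSRY-OFF livers. Cyp2d had 6 of 10 probes called lower, Cyp2j had no tested probe among 6, and probes called higher were found in Cyp2c, Cyp2s, Cyp3a, Cyp4a and Cyp4b.

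**Figure D2:**
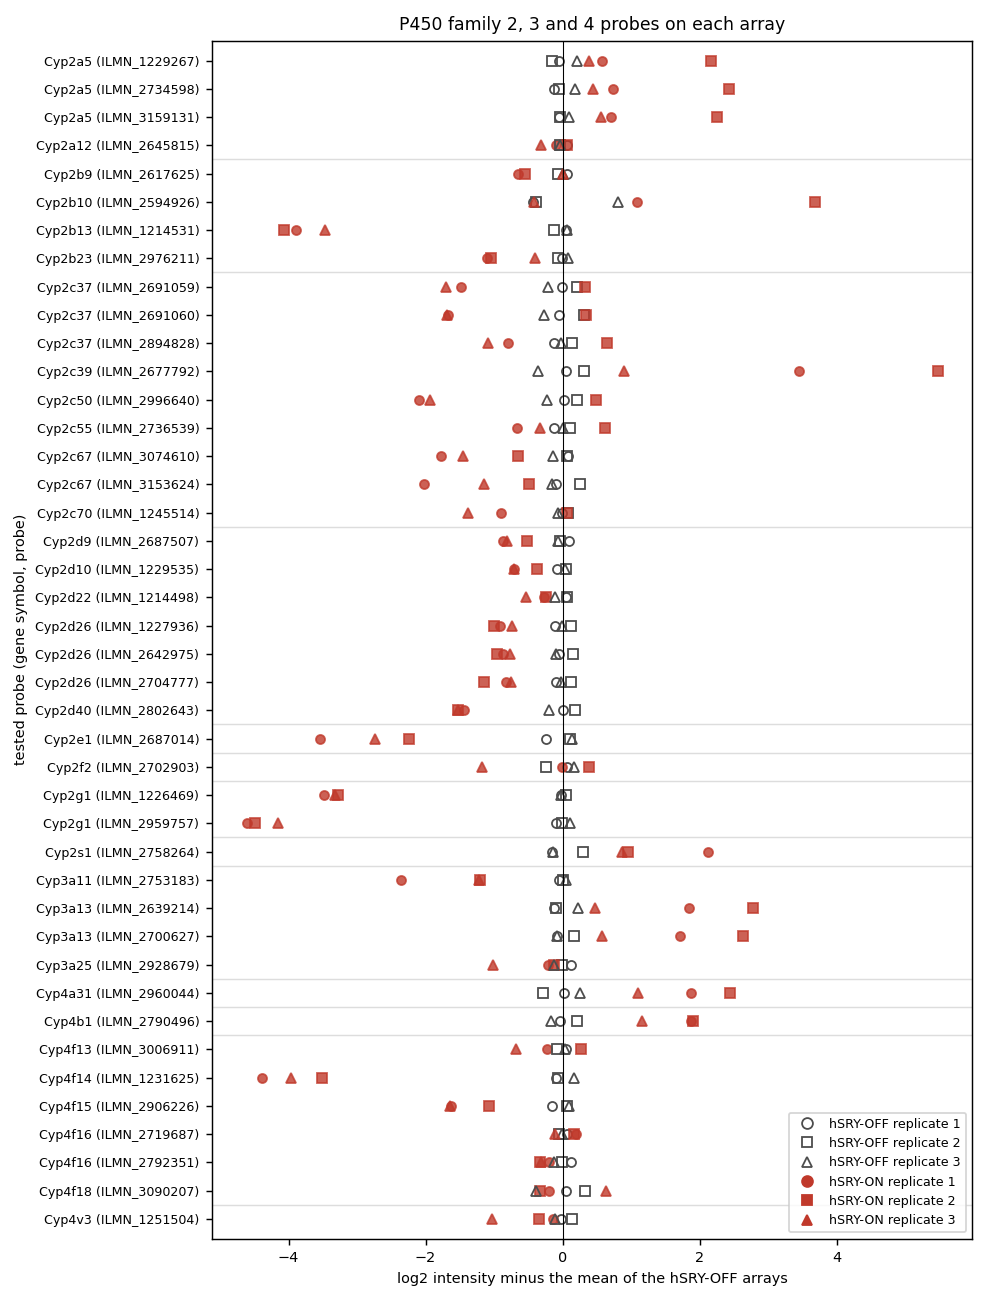
Value of each of the 42 tested member probes on each array, as log2 intensity minus the mean of the 3 hSRY-OFF arrays (open symbols hSRY-OFF, filled symbols hSRY-ON, shape by replicate number, grey lines between subfamilies). Cyp2b13, Cyp2e1, Cyp2g1 and Cyp4f14 lay far to the left on every hSRY-ON array, and the hSRY-ON arrays of Cyp2c and Cyp2a5 probes were spread with replicate 2 to the right.

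Signals of the members varied more among hSRY-ON pups than among hSRY-OFF pups. The median SD of the 42 probes was 0.50 in hSRY-ON and 0.13 in hSRY-OFF, against 0.21 and 0.14 over all tested probes. Replicate 2 was the highest hSRY-ON array for 29 of the 42 member probes (69.1%), against 31.7% of all tested probes, and replicate 3 was the lowest for 24 of them (57.1%), against 36.4%. In all 9 tested Cyp2c probes replicate 2 was the highest hSRY-ON array. The hSRY-ON replicates 1, 2 and 3 detected 10762, 10437 and 10371 probes of all genes. Their median raw intensities were 164.33, 155.75 and 146.9. The cause of this pattern among the hSRY-ON arrays was not tested. Without hSRY-ON replicate 2, 21 member probes were called lower and 6 higher, and without hSRY-ON replicate 3, 16 were called lower and 9 higher. Over the whole array, the fit without replicate 2 called 1690 probes lower and 1385 higher. The fit without replicate 3 called 2125 lower and 1822 higher, against 1854 and 1700 with all arrays.

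Cyp2e1, the pericentral enzyme that oxidises ethanol and acetaminophen, had among the largest falls of a bright probe. Its log2 intensity was 13.87, 14.22 and 14.25 in hSRY-OFF and 10.58, 11.87 and 11.38 in hSRY-ON replicates 1 to 3. All hSRY-ON values were below all hSRY-OFF values, by over 1 log2 unit at the nearest. The difference of -2.84 ± 0.31 (SE, n = 3 and 3, limma adjusted p = 0.000893) was a 7.14-fold fall. In bulk liver, fewer cells of a type and less RNA per cell cannot be told apart, for this gene as for the others.

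Markers of liver zones outside the families are given beside it, from lists chosen from textbook knowledge with earlier results of these data known. Of 8 tested probes of pericentral genes, 7 were called lower (87.5%, against 17.3% of all tested probes) and 1, the ornithine aminotransferase gene Oat (1.23 ± 0.30, adjusted p = 0.0185), was called higher, with a median difference of -1.32. The tested probes of Rhbg, Lgr5 and Tbx3 and 1 of Slc1a2 passed the filter through the hSRY-OFF arrays alone and had to differ. The share called lower was thus partly set by the filter. The Wnt target Axin2 fell by 1.70 ± 0.18 (adjusted p = 0.000758) and the vitamin C synthesis gene Gulo fell by 1.31 ± 0.12 (adjusted p = 0.00038). The ammonium transporter Rhbg, the Wnt receptor partner Lgr5 and the factor Tbx3 were detected on all 3 hSRY-OFF arrays and on no hSRY-ON array. They were at least 4.83-fold, 1.43-fold and 1.48-fold lower (limma adjusted p = 6.79e-05, 0.00198 and 0.0024, on values below the detection limit in hSRY-ON). The glutamate transporter Slc1a2 was called lower by 2 probes (-1.33, adjusted p = 0.0105, and -1.07, adjusted p = 0.00917, the second at least 1.16-fold lower and detected on no hSRY-ON array), and Glul and Slc22a3 were detected on no array. Summed over the pericentral list, the normalised intensity ranged from 11800 to 12181 in hSRY-OFF and from 7288 to 12260 in hSRY-ON, where the groups overlapped. The brightest probe of the list was Gulo on every hSRY-OFF array and Oat, the gene called higher, on every hSRY-ON array. Of 10 tested probes of periportal genes, 3 were called lower (30%, 2 of Gls2 and 1 of Aldh1b1), 1 was called higher (Arg1, 1.05 ± 0.17, adjusted p = 0.00413) and the median difference was 0.23. The periportal sum ranged from 40796 to 55002 in hSRY-OFF and from 51384 to 77089 in hSRY-ON. The part of zonation in the P450 differences was not tested.

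The Cyp2b subfamily, targets of the constitutive androstane receptor with members that are female-predominant in adult mice, held both a steep fall and a member with no call. Cyp2b13 had log2 intensities of 11.59, 11.41 and 11.61 in hSRY-OFF and 7.64, 7.47 and 8.07 in hSRY-ON. The groups were far apart, and all 3 arrays of each group detected the probe. Its difference was -3.81 ± 0.18 (adjusted p = 4.15e-05), a 14.0-fold fall. For Cyp2b9, whose promoter window matched that of Cyp2b13 in 298 of 300 bases, the values were 13.08, 12.96 and 13.04 in hSRY-OFF and 12.38, 12.48 and 13.03 in hSRY-ON, so that hSRY-ON replicate 3 lay among the controls while the others were lower. The difference of -0.39 ± 0.18 did not pass (adjusted p = 0.138), although it did without hSRY-ON replicate 3 (-0.60, adjusted p = 0.00921). Within the same array, Cyp2b13 minus Cyp2b9 changed by -3.41 between the groups, a pair that was picked after its values were seen and is given with no test.

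Cyp2b23 read 11.73, 11.66 and 11.81 in hSRY-OFF and 10.64, 10.69 and 11.33 in hSRY-ON, with no overlap. It fell by 0.85 ± 0.20 (adjusted p = 0.016), and leaving out any hSRY-OFF array or hSRY-ON replicate 1 moved its adjusted p to between 0.0503 and 0.0597. Cyp2b10, the classic target of the constitutive androstane receptor, varied more between pups than the other Cyp2b probes. In hSRY-OFF its values were 6.41, 6.46 and 7.65, and in hSRY-ON they were 7.93, 10.53 and 6.42. The groups overlapped, replicate 2 standing far above and replicate 3 at the control level, and the difference of 1.45 ± 0.94 did not pass (adjusted p = 0.269). Without hSRY-ON replicate 3 it was called at 2.40 (adjusted p = 0.0463). Of 4 tested Cyp2b probes, 2 were called lower (50%, against 17.3% of all tested probes) and 0 higher (against 15.8%), with a median difference of -0.62.

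**Figure D3:**
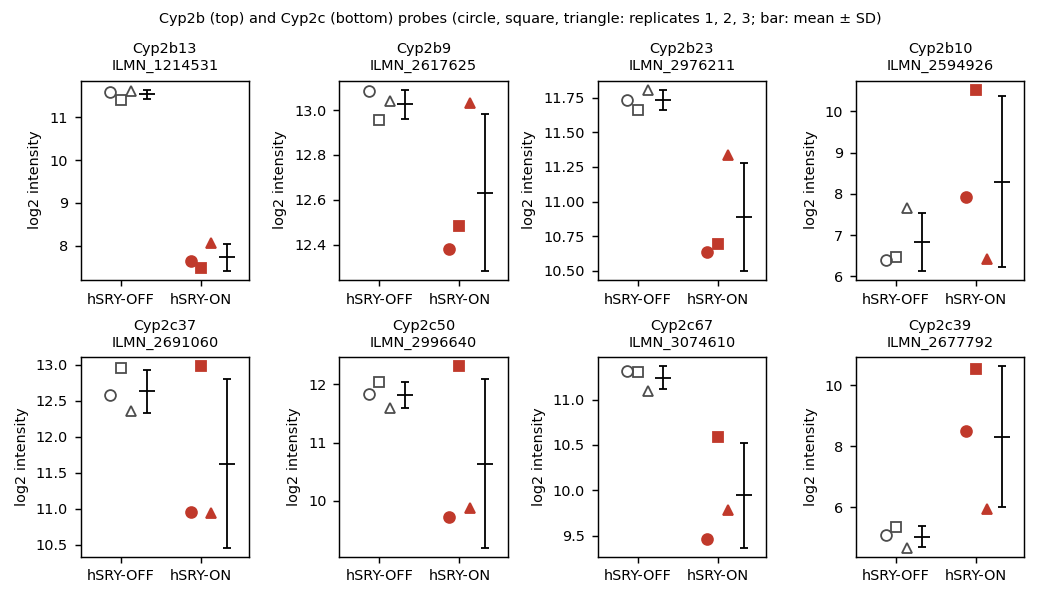
Log2 intensity of 4 Cyp2b probes (top) and 4 Cyp2c probes (bottom) on each array, with circles, squares and triangles for replicates 1, 2 and 3 and bars for the mean ± SD (n = 3 per group). Each panel has its own axis, which does not start at 0. Cyp2b13 was lower on every hSRY-ON array, and in Cyp2b10, Cyp2c37, Cyp2c50 and Cyp2c39 hSRY-ON replicate 2 stood above the other hSRY-ON arrays.

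The Cyp2c subfamily, which includes arachidonic acid epoxygenases, showed mostly negative differences with 1 discordant pup. Of 9 tested probes, 2 were called lower (22.2%, against 17.3% of all tested probes) and 1 higher (11.1%, against 15.8%), which is near the shares of the whole array, while 8 differences were negative and the median was -0.95, against 0.02 over all tested probes. Cyp2c37 was measured by a pair of bright probes and a dim one. The brighter pair behaved alike, and the probe ILMN_2691060 read 12.59, 12.95 and 12.36 in hSRY-OFF and 10.96, 12.98 and 10.95 in hSRY-ON. Here hSRY-ON replicates 1 and 3 lay well below the controls and replicate 2 above all of them. Neither bright probe passed (-1.01 ± 0.52 and -0.95 ± 0.50, adjusted p = 0.179 for both), and without hSRY-ON replicate 2 both did (-1.68, adjusted p = 0.00193, and -1.59, adjusted p = 0.00156). The dim probe was detected on 1 hSRY-ON array (-0.41, adjusted p = 0.476).

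Cyp2c50 showed the same arrangement. Its values were 11.84, 12.04 and 11.59 in hSRY-OFF and 9.73, 12.31 and 9.88 in hSRY-ON. The difference of -1.18 ± 0.63 (adjusted p = 0.188) became -2.02 (adjusted p = 0.000782) without hSRY-ON replicate 2. Cyp2c70, the enzyme that makes muricholic acids from chenodeoxycholic acid in mice, was at 12.95, 13.03 and 12.88 in hSRY-OFF and at 12.05, 13.02 and 11.57 in hSRY-ON, and its difference of -0.74 ± 0.33 (adjusted p = 0.128) was likewise called only without that array (-1.14, adjusted p = 0.00524). Probe sequences were not given, and the transcripts of Cyp2c37 and Cyp2c50, like those of other close pairs such as Cyp2b9 and Cyp2b13 or Cyp2d9 and Cyp2d10, may be read in part by the same probe, which could not be checked.

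Cyp2c67 was the member of the subfamily called lower. With probe ILMN_3074610 its values were 11.32, 11.31 and 11.09 in hSRY-OFF and 9.47, 10.59 and 9.78 in hSRY-ON, without overlap and again with replicate 2 the nearest to the controls. The difference was -1.29 ± 0.27 (adjusted p = 0.0112). A second probe gave -1.22 ± 0.36 (adjusted p = 0.0359) and lost its call without any 1 of the arrays other than hSRY-ON replicate 2, with adjusted p between 0.0532 and 0.116. Cyp2c39, known as a retinoic acid hydroxylase, went the other way. No hSRY-OFF array detected it (5.10, 5.35 and 4.68), while all hSRY-ON arrays did (8.49, 10.52 and 5.94), with replicate 3 near the detection limit. The probe therefore passed the filter through the hSRY-ON arrays alone and had to differ. It was at least 5.97-fold higher (fitted difference 3.27 ± 0.99, adjusted p = 0.0403), but without any 1 hSRY-ON array it no longer reached the filter, and without any 1 hSRY-OFF array its adjusted p was 0.095 to 0.109. Cyp2c55 had a difference of -0.12 (adjusted p = 0.79).

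The Cyp2d subfamily moved most evenly, with 6 of 7 tested probes called lower (17.3% of all tested probes were), 0 called higher and a median of -0.87. In all 7 the 3 hSRY-ON values lay below the 3 hSRY-OFF values, against 24.6% of all tested probes. The 7 probes read 5 symbols, and 3 of them were of the same gene, Cyp2d26. Cyp2d40 was the steepest, with values of 7.73, 7.90 and 7.52 in hSRY-OFF and 6.27, 6.19 and 6.19 in hSRY-ON. The hSRY-ON arrays were tightly grouped over a log2 unit below the controls (-1.50 ± 0.13, adjusted p = 0.000402). Cyp2d26 was read by 3 probes, with differences of -0.87, -0.88 and -0.91 (adjusted p = 0.00266, 0.00274 and 0.00397), and its leading probe gave 13.24, 13.44 and 13.20 in hSRY-OFF and 12.42, 12.33 and 12.53 in hSRY-ON. Unlike in Cyp2c, replicate 2 was the lowest hSRY-ON array of each Cyp2d26 probe.

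Cyp2d9, the testosterone 16α-hydroxylase that is male-predominant in adult mice, read 12.45, 12.31 and 12.28 in hSRY-OFF and 11.48, 11.83 and 11.54 in hSRY-ON. All hSRY-ON values were lower, and it fell by 0.73 ± 0.14 (adjusted p = 0.00721), or 1.66-fold. Cyp2d10 read 12.88, 13.01 and 13.005 in hSRY-OFF and 12.25, 12.59 and 12.25 in hSRY-ON. The groups were apart and the difference was -0.60 ± 0.14 (adjusted p = 0.0148), with adjusted p of 0.059 without hSRY-OFF replicate 2 and 0.0501 without hSRY-ON replicate 1. Cyp2d22, considered close to human CYP2D6, had the smallest difference in the subfamily (-0.35 ± 0.13, adjusted p = 0.0803), its values being 12.96, 12.98 and 12.81 in hSRY-OFF and 12.65, 12.68 and 12.38 in hSRY-ON.

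Of the members listed here as sex-biased in adult liver, Cyp2d9 of the male list and Cyp2b13 of the female list were thus both called lower. Cyp2b9 was the only other tested member of these lists, while Cyp2c40, Cyp3a16 and Cyp3a44 of the female list were detected on no array. The lists were short and do not cover every sex-biased member. Both groups consisted of males, so these values give no comparison of the sexes.

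Cyp2g1, best known from the olfactory epithelium, went from detected to not detected. With probe ILMN_2959757 its values were 9.19, 9.28 and 9.41 in hSRY-OFF and 4.68, 4.80 and 5.14 in hSRY-ON. With probe ILMN_1226469 they were 7.96, 8.04 and 7.97 against 4.50, 4.70 and 4.66. All hSRY-OFF arrays detected both probes and no hSRY-ON array detected either, so that the probes passed the filter through the hSRY-OFF arrays alone and had to differ. Only a bound can be given, and the gene was at least 11.99-fold lower by the first probe and at least 4.85-fold lower by the second (limma adjusted p = 2.16e-05 for each, on values below the detection limit in hSRY-ON).

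The tested members of the Cyp2s and Cyp2f subfamilies did not follow this fall. Cyp2s1, an epithelial enzyme induced through the aryl hydrocarbon receptor, rose. It read 5.73, 6.18 and 5.74 in hSRY-OFF, where 2 of 3 arrays detected it, and 7.998, 6.84 and 6.75 in hSRY-ON, with replicate 1 the highest. Its difference was 1.31 ± 0.33 (adjusted p = 0.0215), or 1.29 with the undetected array set to its detection limit. Without hSRY-OFF replicate 1 or replicate 3 its adjusted p was 0.0788 or 0.0684. Cyp2f2, which bioactivates naphthalene in airway and liver, read 11.84, 11.54 and 11.95 in hSRY-OFF and 11.78, 12.16 and 10.60 in hSRY-ON. These groups overlapped and the difference of -0.27 ± 0.37 was not called (adjusted p = 0.612). Since Cyp2f2, Cyp2s1 and Cyp4b1 are also airway genes, markers of airway epithelium were read, and 0 of 5 probes of Scgb1a1, Sftpa1, Sftpb and Sftpc were detected on any array, nor were any of 3 kidney marker probes of Umod and Slc34a1.

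In the Cyp2a subfamily no tested probe was called. Cyp2a5, the coumarin 7-hydroxylase and nicotine oxidase, was read by 3 tested probes that all lay higher on every hSRY-ON array than on any hSRY-OFF array. The probe with the smallest p read 8.996, 9.01 and 9.15 in hSRY-OFF and 9.76, 11.31 and 9.61 in hSRY-ON. Replicate 2 stood far above, and the differences of 1.17, 1.20 and 1.04 did not pass (adjusted p = 0.0653, 0.0902 and 0.108). Without hSRY-ON replicate 2, 2 of the 3 probes were called with smaller differences (0.64, adjusted p = 0.0153, and 0.58, adjusted p = 0.0394), and without hSRY-ON replicate 3 all 3 were called. Cyp2a12 had values of 13.18, 13.08 and 13.08 in hSRY-OFF and 13.01, 13.18 and 12.80 in hSRY-ON (-0.12 ± 0.13, adjusted p = 0.535).

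The Cyp3a subfamily, whose members metabolise many drugs, steroids and bile acids and respond to the pregnane X receptor, held calls in both directions. Cyp3a11, the main Cyp3a enzyme of adult mouse liver, read 14.21, 14.27 and 14.30 in hSRY-OFF and 11.89, 13.05 and 13.04 in hSRY-ON. The controls were within 0.1 of each other and every hSRY-ON array was below them, replicate 1 the furthest. The difference was -1.60 ± 0.30 (adjusted p = 0.0074), a 3.03-fold fall. Cyp3a13, known from the intestine as well as liver, read 7.98, 8.22 and 7.97 in hSRY-OFF and 9.76, 10.69 and 8.63 in hSRY-ON with probe ILMN_2700627. All hSRY-ON arrays were higher and widely spread, replicate 2 at the top. It rose by 1.64 ± 0.46 (adjusted p = 0.03), and a second probe rose by 1.70 ± 0.51 (adjusted p = 0.0393). Leaving out any 1 array other than hSRY-ON replicates 2 and 3 ended the call of the first probe (adjusted p 0.0738 to 0.0933), and leaving out any array other than hSRY-ON replicate 3 ended that of the second (adjusted p 0.0603 to 0.116). Without the filter on dim probes neither was called (adjusted p = 0.0698 and 0.0904). Another probe was detected on 2 hSRY-ON arrays and not tested.

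Cyp3a25 read 11.83, 11.70 and 11.58 in hSRY-OFF and 11.49, 11.57 and 10.68 in hSRY-ON. Its groups did not overlap by a narrow margin, and the difference of -0.45 ± 0.24 did not pass (adjusted p = 0.183).

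In family 4, the fatty acid hydroxylase Cyp4a31 and the lung-type enzyme Cyp4b1 were higher in hSRY-ON and the Cyp4f genes Cyp4f14 and Cyp4f15 were lower. Cyp4a31 read 10.16, 9.84 and 10.39 in hSRY-OFF and 12.01, 12.58 and 11.24 in hSRY-ON. No value overlapped, and it rose by 1.81 ± 0.33 (adjusted p = 0.00612), or 3.51-fold. Cyp4b1, which activates pro-toxins such as furans, read 6.59, 6.84 and 6.47 in hSRY-OFF and 8.51, 8.53 and 7.80 in hSRY-ON. Its groups were over 0.9 apart and it rose by 1.65 ± 0.22 (adjusted p = 0.00195), or 3.13-fold.

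Cyp4f14, an ω-hydroxylase of leukotriene B4 and fatty acids, had one of the largest falls of all members. It read 9.47, 9.50 and 9.74 in hSRY-OFF and 5.18, 6.07 and 5.61 in hSRY-ON, where only replicate 2 detected it. The groups were over 3 log2 units apart. Its fitted difference was -3.95 ± 0.22 (adjusted p = 9.70e-05), and -3.75 with the undetected arrays at their detection limit. Cyp4f15, like Cyp4f14 a gene of chromosome 17, read 10.62, 10.84 and 10.87 in hSRY-OFF and 9.15, 9.70 and 9.14 in hSRY-ON. It fell by 1.45 ± 0.18 (adjusted p = 0.0015), or 2.73-fold, with no overlap.

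The other Cyp4f probes were not called, although Cyp4f13 and Cyp4f16 lie on the same chromosome. Cyp4f13 read 10.32, 10.20 and 10.31 in hSRY-OFF and 10.05, 10.54 and 9.60 in hSRY-ON, which overlapped (-0.21 ± 0.23, adjusted p = 0.511). Cyp4f16 gave -0.28 and 0.08 with its 2 tested probes (adjusted p = 0.113 and 0.655), and Cyp4f18 gave 0.04 (adjusted p = 0.932). Cyp4v3, the counterpart of a human gene of retinal lipid metabolism, read 10.38, 10.53 and 10.28 in hSRY-OFF and 10.26, 10.06 and 9.36 in hSRY-ON, apart by a narrow margin and not called (-0.51 ± 0.23, adjusted p = 0.132). Of the 7 symbols with 2 or more tested probes, 6 had differences of 1 sign, the exception being Cyp4f16, and 0 had opposite calls.

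**Figure D4:**
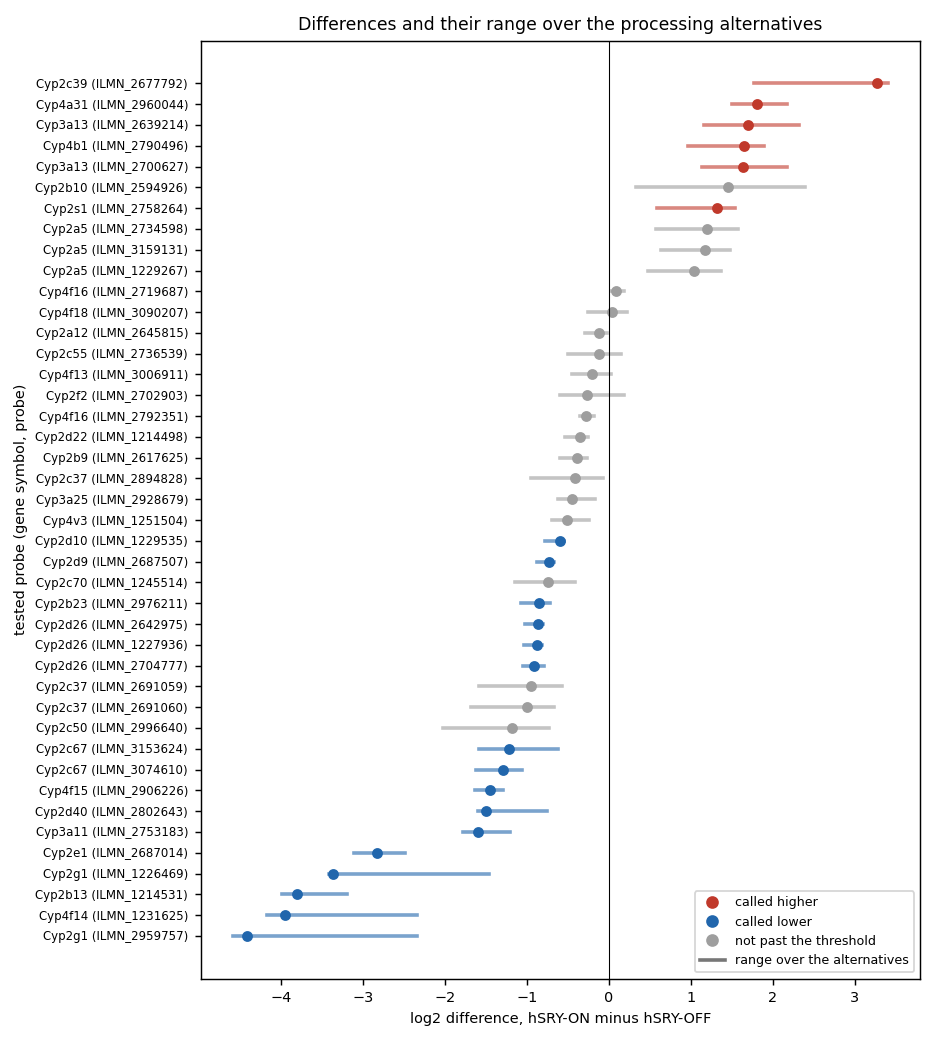
Fitted log2 difference (hSRY-ON minus hSRY-OFF) of each of the 42 tested member probes (points), coloured by the call. Bars give its range over those of 15 other settings in which it was tested. These settings were processing alternatives or the omission of 1 array, and the Cyp2g1 and Cyp2c39 probes were tested in 11 of them. Cyp2g1, Cyp4f14, Cyp2b13 and Cyp2e1 were lower throughout their ranges, while the ranges of Cyp4f18, Cyp2c55, Cyp4f13 and Cyp2f2 crossed 0.

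The partners and regulators of P450 enzymes were a list chosen from textbook knowledge with earlier results of these data known. Of its 33 tested probes, 5 were called higher (15.2%, close to the 15.8% of all tested probes) and 15 called lower (45.5%, against 17.3%). Their median difference was -0.45. Alas1, which makes the first precursor of heme, read 11.17, 11.16 and 11.19 in hSRY-OFF and 12.30, 12.35 and 12.33 in hSRY-ON. The replicates of each group were nearly equal and the groups over 1 log2 unit apart, a rise of 1.16 ± 0.11 (adjusted p = 0.000434). The heme-degrading enzyme Hmox1 rose by 1.03 ± 0.17 (adjusted p = 0.00452), and the flavin monooxygenase Fmo5 by 0.81 ± 0.21 with 1 of 2 probes (adjusted p = 0.0241). Among electron carriers, cytochrome b5 (Cyb5, -0.92, adjusted p = 0.0107), its mitochondrial relative Cyb5b (-0.45, adjusted p = 0.0364) and all 3 probes of the b5 reductase Cyb5r3 (-0.49 to -0.94, adjusted p from 0.00121 to 0.0177) were called lower. Por, the P450 oxidoreductase, was not called by any of its 3 probes (1.06, 1.01 and 0.91, adjusted p = 0.0802, 0.0647 and 0.0884). Its brightest probe read 11.12, 11.25 and 11.28 in hSRY-OFF and 12.35, 12.94 and 11.37 in hSRY-ON, where replicate 2 was again the highest and replicate 3 near the controls. The heme-binding protein Pgrmc1 (-0.46, adjusted p = 0.0466) and the flavin monooxygenase Fmo1 (-0.59, adjusted p = 0.024) were called lower.

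Among the nuclear receptors, Nr1i3, the constitutive androstane receptor, read 9.60, 9.93 and 10.15 in hSRY-OFF and 8.10, 8.73 and 8.68 in hSRY-ON. It fell by 1.39 ± 0.22 with no overlap (adjusted p = 0.00349). Nr1i2, the pregnane X receptor, had values of 7.48, 7.70 and 7.87 in hSRY-OFF and 7.92, 8.01 and 7.96 in hSRY-ON (0.28 ± 0.13, adjusted p = 0.145), and neither their partner Rxra (0.31, adjusted p = 0.178) nor Hnf4a (-0.09, adjusted p = 0.768) was called.

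Of the other liver transcription factors, Cebpa fell by 1.66 ± 0.27 (adjusted p = 0.00392), Foxa3 by 0.92 ± 0.15 (adjusted p = 0.00449) and Foxa2 by 0.83 ± 0.23 with its 1 tested probe (adjusted p = 0.0304), while Cebpb rose by 1.39 ± 0.20 (adjusted p = 0.00266). In the growth hormone axis, which sets the sex bias of P450 genes in adult liver, both probes of the receptor Ghr were called lower (-1.31, adjusted p = 0.0016, and -1.03, adjusted p = 0.0047). Stat5a was called lower by 1 of its 2 probes (-0.56, adjusted p = 0.00942), Bcl6 rose by 1.39 ± 0.21 (adjusted p = 0.00339) and 1 probe of Cux2 fell by 1.75 ± 0.44 (adjusted p = 0.0212), with values of 9.04, 9.21 and 8.79 in hSRY-OFF and 6.59, 8.40 and 6.79 in hSRY-ON. The other 2 Cux2 probes did not reach the filter, and Stat5b was detected on no array.

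**Figure D5:**
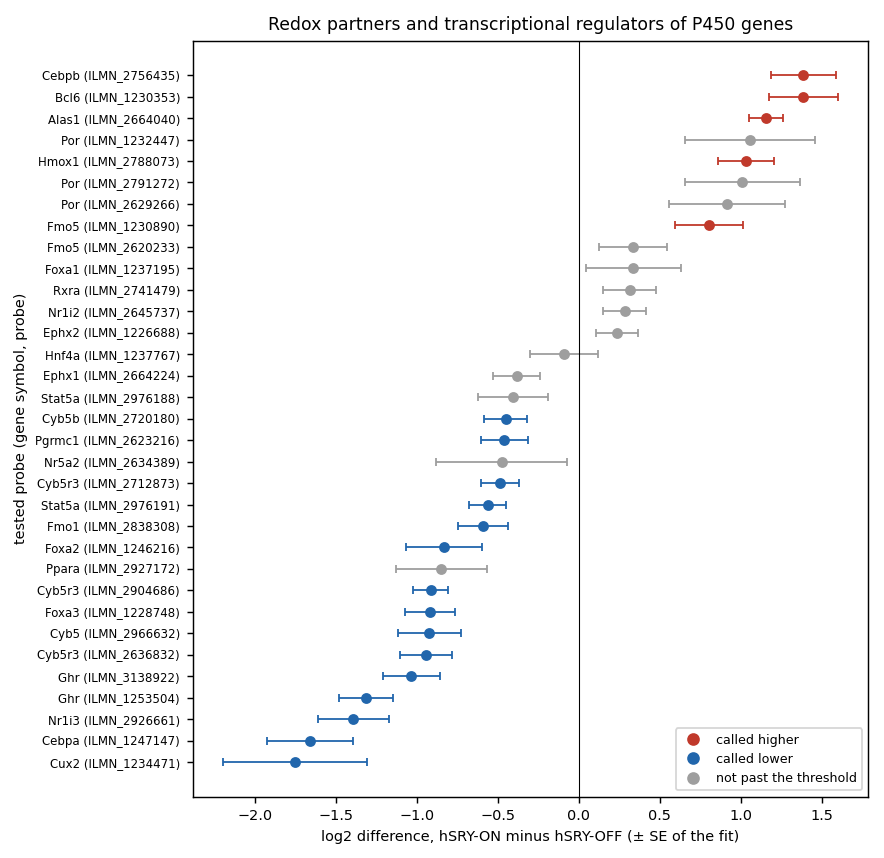
Fitted log2 difference (hSRY-ON minus hSRY-OFF) of the 33 tested probes of P450 partners and regulators, with the SE of the limma fit as bars (n = 3 arrays per group), coloured by the call. The 3 Por probes were positive with wide errors, while Alas1 had a narrow one, and Nr1i3, Cebpa and Cux2 were the lowest.

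Markers of the cell types of the liver were read from lists chosen in the same way, and their counts stand against 17.3% of all tested probes called lower and 15.8% called higher. Of 12 tested hepatocyte probes, 4 were called lower and 0 higher, with a median difference of -0.15. The Alb probe fell by 1.11 ± 0.22 (adjusted p = 0.00852), 2 Serpina1a probes by 1.11 and 0.91 (adjusted p = 0.0176 and 0.0143) and Ttr by 0.46 (adjusted p = 0.0174). The Alb probe was dim, with an hSRY-OFF mean of 7.94 against 15.01 for Ambp and 15.10 for Apoa1. The other 8 probes were not called, namely Ahsg (0.01 and -0.04), Ambp (-0.02), Apoa1 (-0.12), Hnf4a (-0.09), Rbp4 (0.22) and Serpina1b (-0.33 and -0.18). The Ahsg probe with the difference of 0.01 read 15.40 or 15.43 on every array, near the 15.50 that Hba-a1 read throughout. Values so near the top of the scale can hardly differ, so a small difference there says little. Such bright probes make up most of the summed signal. The summed signal of the list ranged from 230010 to 237120 in hSRY-OFF and from 203790 to 213100 in hSRY-ON. Of 11 tested stellate cell probes, 5 were called higher and 1 lower. Called higher were all 4 probes of the smooth muscle actin gene Acta2 (2.45 to 3.12) and Des (0.77). Lrat, the retinol-storing enzyme of quiescent stellate cells, was at least 2.23-fold lower. Its probe passed the filter through the hSRY-OFF arrays alone and had to differ. Not called were Dcn (0.05 and 0.16), Pdgfrb (0.24), Col1a1 (-0.47) and Col3a1 (-0.21). The sum ranged from 7377 to 8187 in hSRY-OFF and from 18587 to 20467 in hSRY-ON, and most of its rise came from the Acta2 probes.

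Of 6 tested endothelial probes, 3 were called higher (Lyve1 and 2 of Pecam1), with sums of 2656 to 3184 in hSRY-OFF and 3083 to 3896 in hSRY-ON and no signal above background for Kdr. Of 8 tested macrophage probes, 3 were called lower (2 of Clec4f and 1 of Emr1) and 1 higher (Csf1r, whose other probe was not called), with sums of 3349 to 4266 in hSRY-OFF and 2217 to 3137 in hSRY-ON and Cd5l not detected. Of the Clec4f probes, 1 was detected on no hSRY-ON array, passed the filter through the hSRY-OFF arrays alone and had to differ. Of 6 tested erythroid probes, 1 was called higher (Alas2), with sums of 66967 to 82373 in hSRY-OFF and 78558 to 88418 in hSRY-ON and Epb4.2 not detected. Of biliary genes, Krt19 and Sox9 were not detected, 1 probe (Krt7) was tested and it was not called, and the sum ranged from 64.9 to 69.4 in hSRY-OFF and from 52.4 to 84.1 in hSRY-ON. The part of cell composition in the P450 differences was not tested.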

How the data were processed

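Total RNA from liver of male FVB (FVB/N) mice at P6 was hybridised by the authors to Illumina bead arrays (3 hSRY-ON, 3 hSRY-OFF, groups and replicate numbers from the sample titles). The deposited table held, per probe and array, the bead-averaged intensity in linear units, without background subtraction or normalisation (lowest deposited intensity 107.7), and the deposited detection p-value. The submitters' processing notes name limma; scanner software and genome build are not given in the sources used here. The study names TCC, a package for count data, which was not applied to intensities. Every column matched a sample (0 without one).

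Background was estimated from the detection p-values and removed with limma 3.58.1 in R 4.3.3 (function nec, offset 16), followed by quantile normalisation and log2. The offset shrinks the differences of dim probes. Probes detected (p under 0.01) by 3 or more of the 6 arrays were tested with lmFit and eBayes without covariates, two-sided, and a probe was called at a Benjamini-Hochberg adjusted p under 0.05 over all tested probes. For a probe that 1 group never detected, the fold is a bound ("at least"), the mean of the bright group against the higher of each dim array's lowest detected signal and the probe's own. Each probe was tested on its own. Levels of different probes were combined only in the sums over marker lists and in the change of Cyp2b13 minus Cyp2b9 within arrays. Promoter identities are from global alignments (Biopython 1.88) of RefSeq windows. Members and gene lists were chosen with earlier results of these data known. Named were all members with a call, a set of well-known members whatever their values, and called genes of the other lists. The procedure was tested on simulated data. Alternatives covered background correction, offset, scaling, filter, threshold, moderation, the replicate number as a block and leaving out each array. With 3 arrays per group, their number limits the precision. A protein comparison was planned but not made, as no protein sequences were used here.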

Additional observations from a re-analysis of the deposited data

How the results depend on the processing

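The number of member probes called lower was 16 and lay between 12 and 17 under the other settings tried and between 11 and 21 when each array was left out. The number called higher, 6, was less stable: it was 3 with no filter on dim probes, 2 at an adjusted p under 0.01, and 2 to 9 when each array was left out. Over all probes, 1700 higher and 1854 lower calls became 856 and 965 when hSRY-OFF replicate 1 was left out, 950 and 1009 when replicate 2 of that group was, and 1075 higher calls without hSRY-ON replicate 1. Differences that changed sign were all small: Cyp4f18 was -0.014 under median scaling and ranged from -0.26 to 0.22 as each array was left out, Cyp2c55 from -0.49 to 0.15, Cyp2f2 from -0.60 to 0.19 and Cyp4f13 from -0.45 to 0.020, and the cause was not tested. Among the alternatives that kept all arrays, calls were gained by Cyp2b9 under median scaling (-0.57, adjusted p = 0.0381) and by Cyp2d22 without background correction and with trended, robust moderation (adjusted p = 0.0388 and 0.0382). Cyp2c39 lost its call without background correction (1.77, adjusted p = 0.0748) and with no filter on dim probes (0.0945), and the latter also ended those of 1 Cyp2c67 probe (0.0792) and both Cyp3a13 probes (0.0904 and 0.0698), with unchanged differences. The replicate numbers did not pair the arrays (correlations of deviations between same-numbered arrays 0.02, 0.10 and 0.05), and with the replicate block 6 member probes were called higher and 16 lower, with no call of a member probe changed. Dim probes limit what could be seen, since 28 of 70 member probes were not tested and paralogous transcripts may share a probe.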

Other observations

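Cyp4a12a, a testosterone-dependent fatty acid hydroxylase in adult males, carries a trailing letter and so stood outside the family rule. Its log2 intensity was 8.03, 6.63 and 9.31 in hSRY-OFF and 9.27, 9.33 and 8.64 in hSRY-ON. The hSRY-OFF arrays spanned a wider range than the hSRY-ON arrays and the groups overlapped, with a difference of 1.09 ± 0.60 (SE, n = 3 and 3, limma adjusted p = 0.202). Its neighbour Cyp4a12b was detected on no array.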
